A study of Mus musculus with 12 samples.

Results

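Genes for protein kinases and protein phosphatases were taken as the probe sets with exactly 1 gene symbol in the platform annotation that begins with Camk, Mapk, Map2k, Map3k, Map4k, Prka, Prkc, Cdk, Dusp, Ptpn or Ptpr, or with Ppp and a digit. This gave 134 probe sets for 98 genes, out of 11934 probe sets and 5928 singly named genes on the MG-U74C array. The symbol alone decided membership, so the set also holds subunits, inhibitors, scaffolds and a few genes that only share the letters, such as Cdkal1, which encodes a tRNA-modifying enzyme. Hippocampi came from littermate mice of both sexes, 5 to 6 weeks old, that had been housed singly and handled for 5 days. Control animals and animals that had lost CREB and CREM, called mutant in the labels, received saline or 20 mg/kg kainate into the peritoneal cavity, and the tissue was taken 1 hour later. Each of the 4 groups, control saline, control kainate, mutant saline and mutant kainate, has 3 arrays. The alleles of the mutants, any Cre driver and the alleles that the control littermates carry were not stated in the labels used here. RNA of 3 animals was pooled for each array, so the spread between arrays is that between pools, and p-values measure this spread alone.

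Protein kinases attach phosphate groups to other proteins and phosphatases remove them. Kainate opens a class of glutamate receptors and makes hippocampal neurons fire, calcium enters, and calmodulin-dependent kinases, protein kinase A and the mitogen-activated protein kinase cascades carry the signal to the nucleus. There CREB, when phosphorylated, drives genes whose promoters hold a cAMP response element, and dual-specificity phosphatases and protein phosphatase 1 shut the signal down again. The arrays measured RNA, not the activity or the phosphorylation of these enzymes.

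Values are the log2 expression levels that the authors obtained with GCRMA, and levels of different probe sets cannot be set against each other. The array medians over all probe sets lay between 3.26 and 3.41. The array of mutant kainate replicate 3 stood apart on the first principal component, which held 53.2% of the variance, and its values spread less (SD 1.54, the other 11 arrays 1.74 to 1.81). The second component, with 22.9%, parted the 4 arrays numbered replicate 1 from the 8 numbered 2 and 3, so differences within replicate 1 and within replicates 2 and 3 are given where they part. The array labelled control kainate replicate 3 read 12.95 for the astrocyte gene Gfap, where the other 5 control arrays read 10.75 to 11.59. Mutant kainate replicate 3 read 11.55, where the other 5 mutant arrays read 12.23 to 13.03. On Gfap each of these arrays thus read at the level of the other genotype. Over the 32 probe sets that parted the other 10 arrays by genotype with a mean difference of at least 0.5, control kainate replicate 3 lay on the mutant side for 30 and mutant kainate replicate 3 on the control side for 5. The first array thus went against its genotype label on nearly all of these 32, and the second followed its label on most. With no least difference the counts were 51 and 13 of 75 probe sets. With a difference of at least 1 they were 11 and 2 of 11. Groups are named by the labels throughout, and both arrays are called doubted. Leaving both out, with no other change, turned or moved by over 1.5 times the averaged kainate difference of 40 of the 59 measured members described next, and the averaged genotype difference of 39. Values without 1 or both doubted arrays are given for some of the larger differences. Both arrays are replicate 3 kainate arrays. Without a block, leaving both out gives replicate 1 more weight in the kainate groups than in the saline groups. Kainate differences of members that split by replicate number can move for that reason too. The Creb1 and Crem probe sets read 4.77 to 5.11 and 4.37 to 4.83 over all 12 arrays. The files used here do not say whether they lie in deleted sequence, so they check no label. Of the markers of other cells, 2 of 12 for neurons, 1 of 14 for hippocampal principal cells, 4 of 15 for astrocytes and 3 of 14 for microglia could be measured. Fewer cells of a type and less RNA per cell cannot be told apart in these pools.

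A probe set was called measured when it reached log2 4 on 3 or more of the 12 arrays. This held for 59 of the 134 members (44%), from 50 genes, against 3541 probe sets (29.8%) of the whole array. Of these 59, 47 reached the level on all 12 arrays and 12 on fewer. Among the kinases, 4 of 5 Camk, 6 of 13 Mapk, 0 of 2 Map2k, 3 of 7 Map3k, 1 of 1 Map4k, 2 of 7 Prka, 2 of 3 Prkc and 8 of 16 Cdk probe sets were measured. Among the phosphatases the counts were 4 of 14 for Dusp, 2 of 5 for Ptpn, 6 of 10 for Ptpr and 21 of 51 for Ppp. Members just inside the limit were Ptprd (3.80 to 4.70) and Cdkal1 (3.81 to 4.29), each at the level on 3 arrays. Just outside lay Ptprj (3.53 to 4.37) and Ppp4r1 (2.80 to 4.35), each at the level on 2 arrays. The bars by symbol family show that the share measured varied widely.

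**Figure D1:**
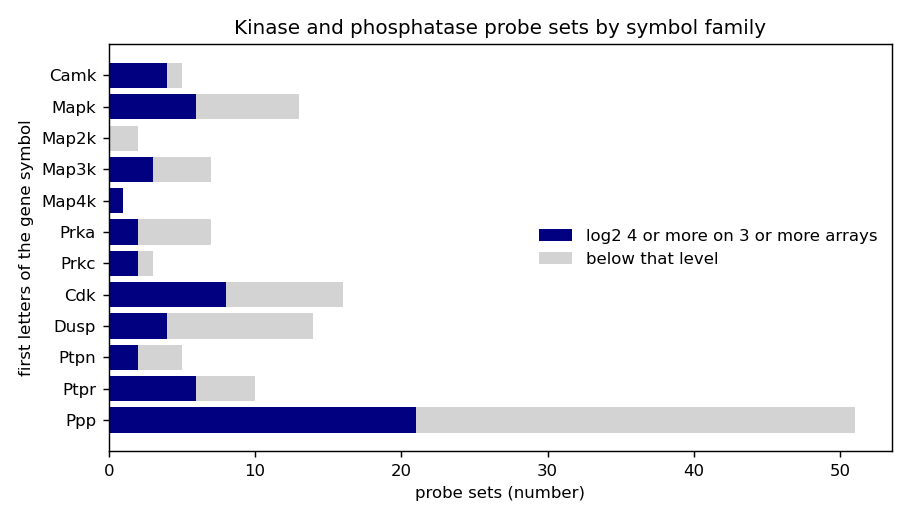
Number of probe sets (horizontal axis) in each symbol family (vertical axis), with dark bars for those at log2 4 or more on 3 or more arrays and grey for the rest. Ppp is the largest family with 51 probe sets, 21 of them measured, and neither Map2k probe set was measured.

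Several of the genes nearest to CREB and to activity-induced feedback fell below that level. Dusp1, a nuclear phosphatase of mitogen-activated protein kinases and a known activity-induced gene, read 2.31 to 2.46 on all 12 arrays. Dusp2, of the same nuclear class, read 3.64 to 3.83 and Dusp14 read 1.82 to 1.96. Prkacb, a catalytic subunit of protein kinase A, read 2.37 to 2.53. Ppp3r1 and Ppp3r2, the regulatory subunits of calcineurin, read 1.18 to 1.27 and 2.07 to 2.18. The members hold no probe set for Camk2a, Camk4 or the catalytic calcineurin gene Ppp3ca. Nothing can be said from these arrays about the response of such genes, since a probe set below the level may report little of its gene.

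RefSeq promoters (assembly GRCm38.p6, 250 bases before to 50 after the start of transcription) were found for 82 of the 98 member genes, with 101 entries in all. The full cAMP response element TGACGTCA, the motif that CREB binds, was in 4 of these entries (3.96%) against 1.79% of all 32851 entries. The core TGACG, searched on both strands and counted also inside the full element, was in 40 entries (39.6%) against 20.8% of all. The EGR motif GCGTGGGCG was in 0 of the 101 entries, against 0.612% of all. The members with the full element were Dusp1, Mapk10, Ppp2ca and Prkcz, of which Dusp1 was not measured. The promoters of the first 3 follow because CREB is the factor that the mutants lack, and that of Ppp1r3g because this member had the highest rise with kainate in control mice. Capitals mark the TGACG core on either strand, and 8 capitals in a row are the full element. A match describes these letters and does not show that CREB binds there.
Dusp1, chr17:26508423-26508722, minus strand: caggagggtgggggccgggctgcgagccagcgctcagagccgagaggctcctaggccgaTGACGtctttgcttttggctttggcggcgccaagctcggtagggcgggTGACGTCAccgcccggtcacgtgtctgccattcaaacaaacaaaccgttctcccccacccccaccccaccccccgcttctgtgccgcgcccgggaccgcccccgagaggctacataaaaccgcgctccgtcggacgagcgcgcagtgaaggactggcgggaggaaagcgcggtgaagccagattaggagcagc
Mapk10, chr5:103211285-103211584, minus strand: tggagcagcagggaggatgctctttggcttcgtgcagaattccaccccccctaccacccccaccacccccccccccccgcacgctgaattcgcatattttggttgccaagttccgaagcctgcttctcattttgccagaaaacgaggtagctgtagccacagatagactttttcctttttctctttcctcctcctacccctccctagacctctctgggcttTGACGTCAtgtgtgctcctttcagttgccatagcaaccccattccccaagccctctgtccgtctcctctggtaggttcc
Ppp2ca, chr11:52098574-52098873, plus strand: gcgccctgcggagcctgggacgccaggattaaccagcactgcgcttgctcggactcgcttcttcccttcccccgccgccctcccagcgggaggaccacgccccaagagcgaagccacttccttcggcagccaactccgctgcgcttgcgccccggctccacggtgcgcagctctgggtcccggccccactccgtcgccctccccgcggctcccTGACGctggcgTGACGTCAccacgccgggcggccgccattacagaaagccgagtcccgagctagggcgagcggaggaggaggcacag
Ppp1r3g, chr13:35967656-35967955, plus strand: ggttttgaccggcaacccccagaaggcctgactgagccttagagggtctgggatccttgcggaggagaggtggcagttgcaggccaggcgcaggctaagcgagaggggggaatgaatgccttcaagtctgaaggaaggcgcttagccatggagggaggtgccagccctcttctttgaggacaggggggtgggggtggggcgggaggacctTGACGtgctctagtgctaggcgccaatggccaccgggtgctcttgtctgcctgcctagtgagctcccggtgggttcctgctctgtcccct
The first base of the capitals lies 191 and 143 bases before the start in Dusp1, 29 in Mapk10, 37 and 26 in Ppp2ca, and 40 in Ppp1r3g. Mapk10 has a further RefSeq start whose window holds no core.

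None of the 59 measured members passed an adjusted p under 0.05 in any of 7 comparisons with limma, whether or not the replicate number was a block. In the effect of kainate in control mice 1 probe set of all 3541 passed (0.0282%; 3 with the block, 0.0847%), and no member had an unadjusted p under 0.05 (4.46% of all). In the effect of kainate in mutants 1 passed as well (0.0282%; 2 with the block, 0.0565%), with 7 members (11.9%) at an unadjusted p under 0.05 against 8.47% of all. Averaged over the genotypes, kainate changed 5 probe sets (0.141%), with 7 members (11.9%) at an unadjusted p under 0.05 against 11.3% of all. For the genotype effects after saline, after kainate and averaged over treatments, 0 of 3541 passed (0% in each). Unadjusted p under 0.05 was reached there by 8 members (13.6%, all 12.1%), 4 members (6.78%, all 4.72%) and 11 members (18.6%, all 19.1%). The members' shares therefore lay near those of the whole array. The comparisons share arrays, so their values are not independent of each other.

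The median log2 difference of the 59 members with kainate was 0.02 in control mice (all probe sets 0.01) and -0.15 in mutants (all -0.08). Averaged over the genotypes it was -0.05 (all -0.04), with 12 of 59 members above 0 (20.3%, all 31.6%). The median genotype difference was -0.00 after saline (all 0.04), -0.27 after kainate (all -0.03) and -0.09 averaged over treatments (all -0.01). After kainate 20 of 59 members were above 0 in mutants against control (33.9%, all 46.5%), and averaged over treatments 18 of 59 (30.5%, all 48.9%). The array of mutant kainate replicate 3 enters both. Without it the median genotype difference was 0.03 after kainate (all 0.02) and 0.01 averaged (all 0.02), with 37 (62.7%, all 57.3%) and 33 members (55.9%, all 58%) above 0. This array was the lowest of 12 on 33 of the 59 members (55.9%) and on 38.9% of all measured probe sets. Against replicates 1 and 2 of its own group it read lower by a median of -0.62 over the members and -0.06 over all. At a mean level of log2 7 or more the values were alike, -0.98 over 21 members and -0.99 over 720 probe sets. The dot plot of the differences shows values within about 1 log2 unit of 0 for all but Cdk17.

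**Figure D2:**
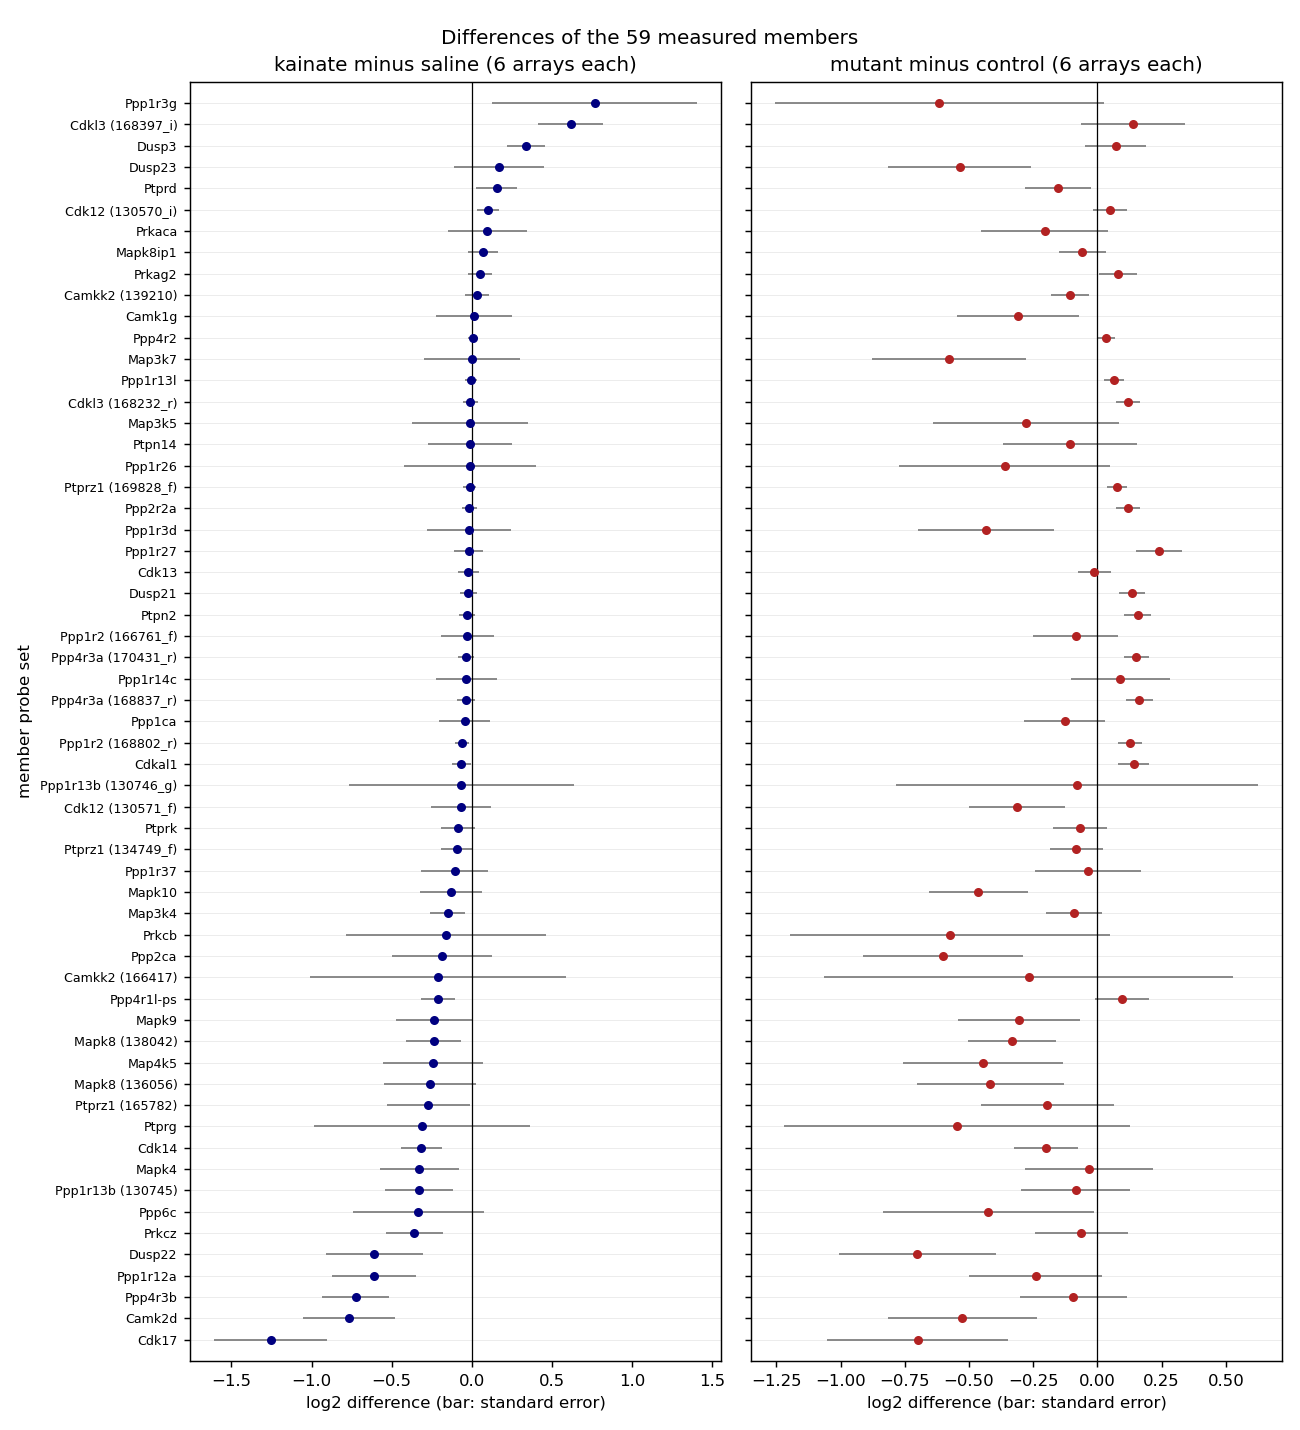
Log2 difference (horizontal axis; points with standard errors as bars) of each of the 59 measured members (vertical axis, in the order of their kainate difference), for kainate minus saline on the left and mutant minus control on the right, 6 arrays on each side of a difference. Cdk17 lies lowest for kainate at -1.25 and Ppp1r3g highest at 0.77, and no member passed the test.

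Ppp1r3g encodes a subunit that brings protein phosphatase 1 to glycogen. In control mice it read 6.38, 6.27 and 5.78 after saline and 7.49, 7.08 and 7.35 after kainate. In mutants it read 6.69, 5.33 and 5.75 after saline and 7.76, 7.42 and 3.70 after kainate. All 3 control kainate arrays lay above all control saline arrays, and so did 2 of the 3 mutant kainate arrays, while mutant kainate replicate 3 gave the lowest value of the 12. The control means were 6.14 ± 0.32 and 7.30 ± 0.21 (SD, n = 3 arrays each), a log2 difference of 1.16 ± 0.90 (SE; limma, adjusted p = 1.00). That SE comes from the spread within all 4 groups, and the mutant kainate group, with its doubted array, had an SD of 2.25. With only the control saline and control kainate arrays fitted, the smallest adjusted p of the members (limma) was 0.368, for Ppp1r3g. Averaged over the genotypes the difference was 0.77 ± 0.64 (adjusted p = 0.712). It was 1.09 in replicate 1 and 0.60 in replicates 2 and 3. Without mutant kainate replicate 3, and with replicate 1 against replicates 2 and 3 as a block, it was 1.37 ± 0.17, which is 2.58-fold (limma, adjusted p = 0.0134). Without control kainate replicate 3 as well it was 1.31 ± 0.18, or 2.47-fold (limma, adjusted p = 0.0390). This was the 1 member past the threshold in that fit, in which 20 of 3541 probe sets passed (0.565%). Leaving out mutant kainate replicate 3 without the block gave 1.42 (limma, adjusted p = 0.0807). The call thus rests on leaving out an array and on the block together.

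In control mice 4 members had kainate arrays wholly above the saline arrays (6.78%, all 6.02%) and 2 wholly below (3.39%, all 4.63%). Beside Ppp1r3g the higher ones were Map3k7 (0.47), which encodes the kinase TAK1, Ppp1r26 (0.30), a further partner of protein phosphatase 1, and a Cdk12 probe set (0.12). Map3k7 read 4.74, 4.85 and 4.63 after saline and 5.24, 5.10 and 5.29 after kainate. In mutants it did not part, with 4.75, 4.02 and 5.14 after saline and 4.73, 4.70 and 3.07 after kainate. The lower ones were Cdk17 and Ppp4r3b. In mutants 1 member lay wholly above (Cdkl3; 1.69%, all 1.67%) and 2 wholly below (Ppp4r3b and Prkcz; 3.39%, all 8.44%). The plot of 6 members by array shows the arrays of each group.

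**Figure D3:**
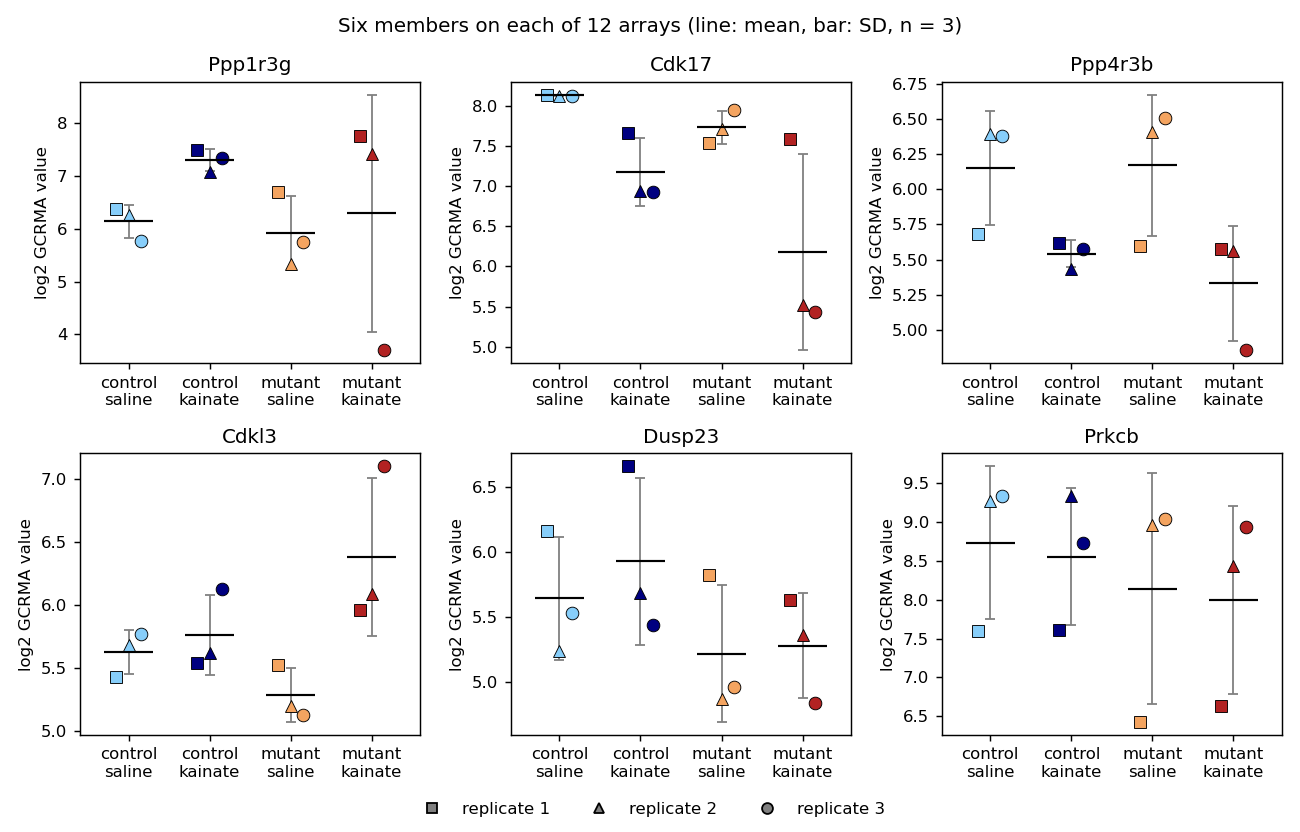
Log2 GCRMA level (vertical axes) on each of the 12 arrays for Ppp1r3g, Cdk17, Ppp4r3b, Cdkl3 (the i_at probe set), Dusp23 and Prkcb, by group (horizontal axes); markers give the replicate number, lines the mean and bars the SD of 3 arrays. Ppp1r3g is high on 5 of the 6 kainate arrays and 3.70 on mutant kainate replicate 3, and Prkcb is lowest on the replicate 1 arrays of all 4 groups.

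Cdk17, a neuronal kinase of the PCTAIRE class within the cyclin-dependent kinase family, showed the lowest kainate difference of the members. It read 8.14, 8.13 and 8.13 on the control saline arrays and 7.67, 6.94 and 6.93 on the control kainate arrays. The mutant saline arrays read 7.54, 7.72 and 7.95 and the mutant kainate arrays 7.59, 5.52 and 5.43. Kainate arrays lay below all saline arrays in control mice, and in mutants this held for replicates 2 and 3 but not for replicate 1. The log2 difference was -0.95 ± 0.50 in control mice and -1.55 ± 0.50 in mutants, and -1.25 ± 0.35 averaged (limma, adjusted p = 0.349 for the last). Within replicate 1 the averaged difference was -0.21 and within replicates 2 and 3 it was -1.78. Without mutant kainate replicate 1 the averaged difference was -1.61 ± 0.14 (limma, adjusted p = 0.00239). That in mutants was then -2.26 ± 0.22, or 4.79-fold lower (adjusted p = 0.00708). The difference between mutant and control after kainate was -1.71 ± 0.22 (adjusted p = 0.0178). The mutant kainate group of this fit holds replicate 2 and the doubted replicate 3, and the control kainate group keeps its doubted array. Without mutant kainate replicate 3 instead, the smallest adjusted p of the members (limma) was 0.494 for kainate in mutants. For genotype after kainate it was 0.998. No other array left out brought Cdk17 past the threshold.

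The same pattern by replicate number was seen in a measure of RNA integrity. The actin control probe sets read 2.20 to 2.44 higher at the 3' end than at the 5' end on the kainate arrays of replicates 2 and 3, against 1.74 to 1.83 on their saline arrays. On the replicate 1 arrays the gap was 1.61 and 1.77 after kainate and 1.92 and 2.00 after saline. The Gapdh control probe sets differed less between their ends. Their gap was 0.12 to 0.32 on the kainate arrays of replicates 2 and 3 and 0.01 to 0.12 on the saline arrays. On the replicate 1 arrays it was -0.15 to -0.08. The actin gap went with kainate in replicates 2 and 3. Its part in the values of members that split in this way, such as Cdk17, Cdk14, Ppp4r3b and Dusp3, was not tested. RefSeq promoters for Cdk17 were not used here. Among other members of the family, Cdk14, which is known as a PFTAIRE kinase, gave -0.31 ± 0.13 with kainate (adjusted p = 0.384), from -0.01 within replicate 1 and -0.47 within replicates 2 and 3. Cdk12 and Cdk13, which phosphorylate the tail of RNA polymerase II, gave 0.10 and -0.07 for the 2 Cdk12 probe sets and -0.02 for Cdk13.

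Cdkl3, a kinase related to the cyclin-dependent kinases, had a probe set (168397_i_at) that was higher after kainate in mutants. It read 5.53, 5.20 and 5.13 after saline and 5.96, 6.08 and 7.10 after kainate there. In control mice it read 5.43, 5.68 and 5.77 after saline and 5.54, 5.62 and 6.13 after kainate. The mutant groups did not overlap, with the highest value on mutant kainate replicate 3, and the control groups overlapped. The difference was 1.10 ± 0.29 in mutants (limma, adjusted p = 0.579) and 0.14 ± 0.29 in control mice. The interaction, which tests whether both genotypes respond alike, was 0.96 ± 0.41 (limma, adjusted p = 0.973) and was the highest among the members. It was the 1 member (1.69%) at an unadjusted p under 0.05 for the interaction, against 0.875% of all, and 0 of 3541 probe sets (0%) passed the adjusted threshold. Without both doubted arrays and with the block the difference in mutants was 0.74 ± 0.15 (adjusted p = 0.245). With both left out and no block the interaction was 0.78 ± 0.20 (adjusted p = 1.00), and in control mice the difference was -0.04 ± 0.14.

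Ppp4r3b, which encodes a regulatory subunit of protein phosphatase 4, was lower after kainate in both genotypes without overlap. It read 5.68, 6.39 and 6.38 after saline and 5.62, 5.43 and 5.57 after kainate in control mice. Mutants gave 5.60, 6.41 and 6.51 after saline and 5.58, 5.56 and 4.86 after kainate. Within replicate 1 the 4 arrays read alike, and the gap comes mostly from the higher saline values of replicates 2 and 3. Their kainate values also lay below those of replicate 1, most of all on mutant kainate replicate 3. The same-numbered pair with that array differed by -1.65, and the other pairs of replicates 2 and 3 by -0.81 to -0.96. The averaged difference was -0.73 ± 0.21 (limma, adjusted p = 0.349), from -0.04 in replicate 1 and -1.07 in replicates 2 and 3. Of the same complexes, Ppp4r2 gave 0.01 ± 0.03 and Ppp4r3a -0.04 and -0.03 with its 2 probe sets. Ppp2ca, the catalytic subunit of protein phosphatase 2A, whose promoter is printed above, gave -0.18 ± 0.31 with kainate and -0.60 ± 0.31 between genotypes (adjusted p = 0.307). It read 6.25 to 6.49 after saline and 6.29 to 6.73 after kainate in control mice. The mutant values were 5.80 to 6.29 after saline and 6.35, 6.12 and 4.34 after kainate. Without mutant kainate replicate 3 the difference between genotypes was -0.28 ± 0.12 (adjusted p = 0.356) and that with kainate turned to 0.13 ± 0.12. Ppp6c, the catalytic subunit of protein phosphatase 6, read 8.23 to 8.70 on 11 arrays and 5.94 on mutant kainate replicate 3. Its kainate difference was -0.33 with that array and 0.10 without it.

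Ppp1r12a, the myosin-targeting subunit, was lower after kainate in 6 of 6 same-numbered pairs of arrays, as were Ppp4r3b, Mapk4 and the pseudogene Ppp4r1l-ps (4 members, 6.78%, all 5.14%). No member was higher in all 6 pairs (all 1.81%). Ppp1r12a read 7.21, 8.14 and 8.18 after saline and 6.98, 7.66 and 7.75 after kainate in control mice. Mutants gave 7.15, 8.00 and 8.36 after saline and 7.07, 7.21 and 6.69 after kainate. The groups overlap because replicate 1 was low throughout. The averaged difference of Ppp1r12a was -0.61 ± 0.26 (limma, adjusted p = 0.422). The pair with mutant kainate replicate 3 differed by -1.67, and the other pairs by -0.08 to -0.79. The catalytic subunit gene Ppp1ca gave -0.05 ± 0.16 and Ppp1r3d, a further glycogen-targeting subunit, -0.02 ± 0.26. The inhibitors Ppp1r2 and Ppp1r14c gave -0.03 and -0.06 (2 probe sets of Ppp1r2) and -0.04 ± 0.19.

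Ppp1r27, a regulatory partner of protein phosphatase 1, was the 1 member whose 6 mutant arrays all lay above the 6 control arrays (1.69%, all 0.678% in either direction). It read 5.51, 5.52 and 5.52 after saline and 5.19, 5.42 and 5.52 after kainate in control mice. The mutant values were 5.53, 5.85 and 5.54 after saline and 5.60, 5.96 and 5.65 after kainate. The lowest mutant array lay just above the highest control array. The difference was 0.24 ± 0.09 (limma, adjusted p = 0.247), and both replicate 1 (0.21) and replicates 2 and 3 (0.25) showed it. It and Ppp1r13l, the ASPP-family gene known as iASPP, were higher in mutants in all 6 same-numbered pairs (2 members, 3.39%, all 3.13%). Ppp1r13l differed by 0.07 ± 0.04.

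Lower in mutants in all 6 pairs were 6 members (10.2%, all 8.27%): Cdk17, Dusp23, Mapk10, Mapk9, a Mapk8 probe set and Camk2d. Of these, Camk2d counts as measured mostly through control arrays, so the filter favoured its place here. The replicate 3 kainate pair holds both doubted arrays. It differed by -1.50 for Cdk17, -1.08 for Mapk10, -0.72 for Mapk9 and -0.99 for this Mapk8 probe set. At mean log2 7 or more, mutant kainate replicate 3 lay below the mean of its group's other arrays for 90% of probe sets. Mapk8, Mapk9 and Mapk10 are the genes of the 3 c-Jun N-terminal kinases, which respond to stress and to strong neuronal excitation. Mapk10 read 9.00, 8.80 and 8.78 after saline and 9.06, 8.88 and 8.69 after kainate in control mice. In mutants it read 8.45, 8.53 and 8.65 after saline and 8.95, 8.23 and 7.62 after kainate. The saline groups did not overlap, and after kainate mutant replicate 1 lay among the control arrays. The averaged genotype difference was -0.46 ± 0.19 (limma, adjusted p = 0.257), and without both doubted arrays it was -0.35 ± 0.14 (adjusted p = 0.481). Mapk8 gave -0.33 ± 0.17 and -0.42 ± 0.29 with its 2 measured probe sets, and Mapk9 -0.30 ± 0.24. Without both doubted arrays these were -0.21 ± 0.07, -0.29 ± 0.19 and -0.20 ± 0.22. Their scaffold Mapk8ip1 gave -0.06 ± 0.09.

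With kainate in control mice these genes gave 0.02 for Mapk10, -0.07 and -0.14 for Mapk8 and -0.24 for Mapk9, each with an SE of 0.24 to 0.41. Without control kainate replicate 3 they were 0.11, 0.01, 0.09 and -0.13. Mapk4, an atypical member of the family, read 8.46 to 8.60 after saline and 8.19 to 8.53 after kainate in control mice. Its mutant levels were 8.56 to 8.84 after saline and 8.78, 8.53 and 7.13 after kainate. Its averaged kainate difference was -0.33 ± 0.25 (adjusted p = 0.682), and without both doubted arrays it was -0.08 ± 0.10. Among the upstream kinases, Map4k5 gave -0.24 ± 0.31 with kainate and 0.13 ± 0.08 without both doubted arrays, so that its sign turned. Map3k5, which encodes ASK1, gave -0.01 ± 0.36 and Map3k4 -0.15 ± 0.11. Without both doubted arrays Map3k5 gave 0.35 ± 0.22 and Map3k4 -0.07 ± 0.06. Map3k5 lay wholly higher on replicate 1, which has more weight after kainate in this fit without a block.

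Prkcb, a calcium-dependent protein kinase C that is abundant in forebrain neurons, split by replicate number. It read 7.60, 9.27 and 9.33 after saline and 7.61, 9.33 and 8.73 after kainate in control mice. In mutants it read 6.43, 8.96 and 9.04 after saline and 6.63, 8.43 and 8.93 after kainate. Replicate 1 was lowest in each group, and the mutant array was lower than its same-numbered control array in 5 of 6 pairs. The genotype difference was -0.57 ± 0.62 (limma, adjusted p = 0.586), larger in replicate 1 (-1.07) than in replicates 2 and 3 (-0.33). With the block and without both doubted arrays it was -0.77 ± 0.15 (limma, adjusted p = 0.0811), the smallest adjusted p of the members in that fit. Prkcz, an atypical protein kinase C, gave -0.36 ± 0.18 with kainate (adjusted p = 0.502), and in mutants its kainate arrays (10.61, 10.59 and 9.72) lay below its saline arrays (10.70, 11.04 and 10.91). The difference there was -0.58 with mutant kainate replicate 3 and -0.28 without it. For protein kinase A, Prkaca, a catalytic subunit, gave 0.10 ± 0.25 with kainate and -0.21 ± 0.25 between genotypes, and 0.26 ± 0.19 and 0.04 ± 0.19 without both doubted arrays. Prkag2, a subunit of the energy sensor AMP-activated kinase, gave 0.05 ± 0.08 and 0.08 ± 0.08.

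Calmodulin-dependent kinases gave no result past the threshold either. Camk2d, the delta form of calmodulin-dependent kinase II, read 3.93, 4.94 and 4.92 after saline and 4.08, 3.90 and 3.55 after kainate in control mice. In mutants it read 3.90, 3.99 and 4.36 after saline and 3.95, 3.59 and 2.37 after kainate. It reached log2 4 on only 4 arrays, so most of its values sit in the dim range. These were 2 control saline, 1 control kainate, 1 mutant saline and 0 mutant kainate arrays. The filter thus favoured lower values of Camk2d with kainate and in mutants. Its replicate 1 pairs differed by -0.03 and -0.14 between genotypes. The averaged differences were -0.77 ± 0.29 with kainate (limma, adjusted p = 0.376) and -0.53 ± 0.29 between genotypes (adjusted p = 0.330). Without mutant kainate replicate 3 they were -0.53 ± 0.21 and -0.29 ± 0.21, and without both doubted arrays -0.46 ± 0.22 and -0.37 ± 0.22. Camk1g, enriched in neurons, gave 0.02 ± 0.24 and -0.31 ± 0.24, and 0.29 ± 0.15 and -0.16 ± 0.15 without both doubted arrays. Camk1g too lay wholly higher on replicate 1, so its 0.29 holds part of the uneven weight of that replicate. The kinase kinase gene Camkk2 gave 0.03 ± 0.07 and -0.21 ± 0.80 with kainate on its 2 probe sets.

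Of the dual-specificity phosphatases 4 were measured, Dusp3, Dusp21, Dusp22 and Dusp23. Dusp21 read 3.89 to 4.23, near the limit. Dusp23 read 6.16, 5.24 and 5.53 after saline and 6.66, 5.68 and 5.44 after kainate in control mice. In mutants it read 5.82, 4.87 and 4.97 after saline and 5.63, 5.36 and 4.84 after kainate. Each mutant array lay below the control array of the same number, while the groups overlapped because replicate 1 was high. The genotype difference was -0.54 ± 0.28 (limma, adjusted p = 0.307; 0.237 with the replicate number as a block), from -0.68 in replicate 1 and -0.46 in replicates 2 and 3. Without both doubted arrays and with replicate 1 as a block it was -0.55 ± 0.12 (adjusted p = 0.0926). Dusp22, a phosphatase linked to the c-Jun N-terminal kinase pathway, gave -0.70 ± 0.31 between genotypes (adjusted p = 0.260) and -0.36 ± 0.23 without both doubted arrays. Dusp3, which acts on mitogen-activated protein kinases, gave 0.34 ± 0.12 with kainate (adjusted p = 0.353). Within replicate 1 it was -0.06 and within replicates 2 and 3 it was 0.54, again parted by replicate number.

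No tyrosine phosphatase of the Ptpr and Ptpn families passed the threshold. Ptpn2, which acts on cytokine signalling, read 4.35, 4.20 and 4.34 after saline in control mice and 4.48, 4.56 and 4.44 in mutants, without overlap. After kainate it read 4.41, 4.26 and 4.26 in control mice and 4.35, 4.41 and 4.51 in mutants, and the groups overlapped. The genotype difference was 0.20 ± 0.07 after saline (limma, adjusted p = 0.385) and 0.16 ± 0.05 averaged over treatments (adjusted p = 0.247), and that with kainate -0.03 ± 0.05. A Ptprz1 probe set (169828_f_at) also lay higher in mutants after saline, at 4.49 to 4.57 against 4.44 to 4.47 (0.08 ± 0.06). Both probe sets lie near log2 4, where levels followed the dim part of the array as given further on. Ptprz1, a chondroitin sulphate proteoglycan of glia, read 9.12 to 9.39 on 11 arrays and 8.67 on mutant kainate replicate 3 with its brightest probe set. Its 3 probe sets gave -0.09, -0.27 and -0.01 with kainate, and the second gave -0.02 without both doubted arrays. Ptprg read 4.19 to 5.18 on the replicate 1 arrays and 4.68 to 6.96 on the others, and gave -0.31 ± 0.67 with kainate and -0.55 ± 0.67 between genotypes. Without control kainate replicate 3 these were -0.56 and -0.30. Ptprk gave -0.09 ± 0.11 and Ptprd 0.15 ± 0.13 with kainate. Ptpn14 gave -0.01 ± 0.26 with all arrays and 0.22 ± 0.16 without mutant kainate replicate 3.

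Some members followed the replicate number more than either condition. A Camkk2 probe set (166417_at) read 6.36 to 6.83 on the replicate 1 arrays and 7.58 to 9.42 on the others, a log2 difference of -2.42, while the other Camkk2 probe set read 4.73 to 5.21 on all arrays. A Ppp1r13b probe set (130746_g_at) read 5.47 to 6.05 on the replicate 1 arrays and 3.39 to 3.59 on the others. In all, 5 members lay wholly higher on replicate 1 (8.47%, all 6.78%) and 3 wholly lower (5.08%, all 2.29%). The higher ones were both Ppp1r13b probe sets, Camk1g, Mapk9 and Map3k5, and the lower ones the Camkk2 probe set, Prkcb and Ppp1r14c. The labels do not say what the replicate number stands for. The heatmap of levels shows this split and the low values of mutant kainate replicate 3.

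**Figure D4:**
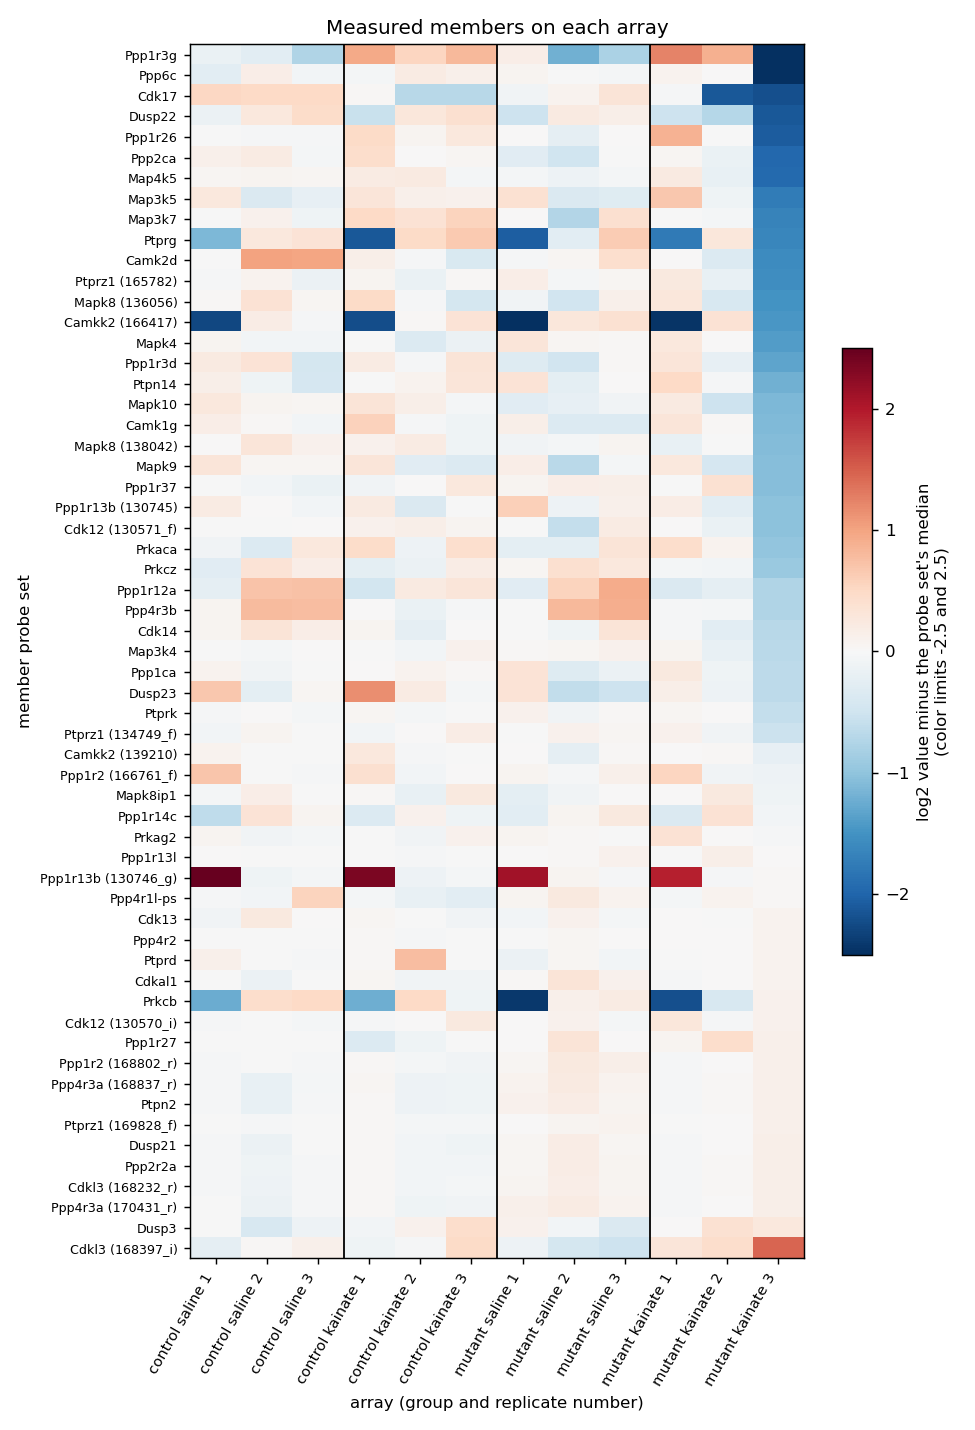
Log2 level minus the probe set's own median over the 12 arrays (colour), for each of the 59 measured members (rows, in the order of mutant kainate replicate 3) and each array (columns, by group and replicate). Mutant kainate replicate 3 is the lowest array on 33 of the 59 rows.

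After saline, 14 members lay wholly higher in mutants (23.7%, all 29.0%) and 3 wholly lower (5.08%, all 5.11%). The higher differences were small, the largest being 0.22 for a Ppp4r3a probe set, and 11 of the 14 came from probe sets that never reached log2 5. Of the 14, Cdkal1 reached log2 4 on 0 control arrays. Ppp2r2a reached it on 3 mutant saline arrays and 0 control saline arrays. These probe sets count as measured because of mutant arrays, so the filter favoured their place among the higher ones. The median of the 8252 probe sets that never reached log2 4 was 2.93 to 2.97 on the mutant saline arrays and 2.88 to 2.90 on the control saline arrays. Of the 16 measured members that never reached log2 5, 10 correlated with this median at 0.69 to 0.98 over the 12 arrays, among them Ppp4r2 (0.98), Ptprz1 (0.90), Ppp2r2a (0.88), Ppp4r3a (0.83 and 0.80) and Ptpn2 (0.82). The other 6 lay between -0.64 and 0.25, with Cdk13 at 0.25, Ppp1r13l at 0.24, a Cdk12 probe set at 0.09, Ptprd at -0.24, a Ppp1r2 probe set at -0.26 and Camk2d at -0.64. Of the 11 dim ones higher after saline, 10 were among the first and Ppp1r13l among the second. These correlations describe values that share an array and its normalization. Quantile normalization again turned the kainate difference of Ptpn2 from -0.03 to 0.0056. The lower ones were Cdk17 (-0.40), Mapk10 (-0.31) and Map4k5 (-0.13), all well above the limit. After kainate 3 members lay wholly higher in mutants (5.08%, all 2.43%) and 2 wholly lower (3.39%, all 3.78%). These were Ppp1r27 (0.36), Ppp4r1l-ps (0.20) and Ppp1r13l (0.07) above, and Map3k7 (-1.04) and a Cdk12 probe set (-0.50) below. Both lower ones had their lowest value on mutant kainate replicate 3. Without this array they were -0.50 for Map3k7 and -0.19 for Cdk12. Without control kainate replicate 3 both moved by less than 0.05, and Ppp1r27 was at 0.43.

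For 8 genes 2 or more probe sets were measured, and these often differed in what they showed. The Cdkl3 probe set that was higher after kainate in mutants (1.10 ± 0.29) stood beside one at -0.05 ± 0.07 that read 3.98 to 4.28 on all arrays. The other Mapk8 probe set was lower in mutants in 5 of 6 pairs. Ppp1r13b gave -0.33 ± 0.21 and -0.07 ± 0.70 with kainate. The letters before "at" in a probe set's name mark designs with less strict probe choice. Probe sets with r made up 22 of the members, with 10 measured (45.5%, all 41%), and those with f made up 21, with 14 measured (66.7%, all 47.8%). Some of these letters, but not all, mark probe sets that may also read related genes. A letter of any kind is carried by 31 of the 59 measured members. Among them are Cdkl3, Ppp1r27, Camk2d, Dusp3, Dusp23, Prkaca, Prkcz, Cdk14, Map4k5, Ptpn2, Ppp1r13l and Ppp4r3a. The probe sets described for Ppp1r3g, Cdk17, Ppp4r3b, Ppp1r12a, Ppp2ca, Mapk10, Mapk4, Map3k7 and Prkcb carry no letter.

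Genes that work with the members were counted from lists of pathway partners. For the mitogen-activated protein kinase cascade 11 of 60 listed genes were measured, for cAMP and protein kinase A 15 of 54, for calmodulin and calcineurin 7 of 29, and for protein kinase C and diacylglycerol 5 of 38. For cyclins 1 of 37 and for other neuronal kinases 15 of 72 were measured. Of all these, Sik1, a salt-inducible kinase that restrains CREB co-activators, was the 1 gene past the threshold, higher with kainate averaged over the genotypes by 1.75 ± 0.19 (limma, adjusted p = 0.00704). It read 4.59 to 5.36 after saline and 6.44 to 7.49 after kainate in control mice, and 4.39 to 4.43 and 5.83 to 6.28 in mutants. Akap8, which anchors protein kinase A in the nucleus, lay lower on all 6 kainate arrays (4.53 to 6.66) than on all 6 saline arrays (6.81 to 7.22). The difference was -0.89 ± 0.29 (limma, adjusted p = 0.349). Its lowest value was on mutant kainate replicate 3, and the other kainate arrays read 5.79 to 6.66. On the replicate 1 arrays Akap8 read 6.92 and 6.83 after saline and 6.66 and 6.64 after kainate. Its probe set carries the letter s. The summed level of the 2 measured neuron markers, as log2 of the sum of linear values, was 8.44 to 8.64 after saline and 8.77 to 8.91 after kainate in control mice. In mutants it was 8.42 to 8.91 and 8.15 to 8.98. That of the 4 measured astrocyte markers was 10.87 to 11.62 and 11.53 to 13.00 in control mice, and 12.27 to 13.01 and 11.62 to 13.06 in mutants, and that of the 3 measured microglia markers 9.56 to 9.76 and 9.82 to 10.66, and 10.12 to 10.38 and 9.10 to 10.56. After saline the astrocyte and microglia sums of the mutants lay wholly above those of the control arrays. The astrocyte sum is mostly Gfap, at 10.75 to 13.03 over all arrays, where Slc1a2 reached at most 7.73. The mean log2 level of the 4 astrocyte markers overlapped after saline, at 6.16 to 6.49 in control mice and 6.37 to 6.92 in mutants. Of these 4 markers 2 were higher in mutants, with a median difference of -0.03. The microglia means stayed apart, at 6.92 to 7.20 and 7.30 to 7.61. The part of these markers in the members' values was not tested.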

How the data were processed

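RNA from pooled mouse hippocampi was hybridised to 12 Affymetrix MG-U74C arrays, 3 in each of 4 groups. The log2 values per probe set were deposited by the authors, who used GCRMA in R 2.4.1 per the submitters' processing notes; GCRMA corrects for background, which sets a floor under dim probe sets, and its settings were not stated in those notes. Arrays give no read depth, so their number limits the precision.

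Groups follow the sample titles. The 66 control probe sets were left out, and the 3541 of 11868 others at log2 4 or more on 3 or more arrays were fitted in 1 limma 3.58.1 model (R 4.3.3) with a mean for each group (8 residual degrees of freedom). P-values were adjusted over all 3541 by Benjamini-Hochberg, with a threshold of 0.05, and the code was tested on simulated data. Symbols came from the platform annotation, and all 134 matched the RefSeq gene table of GRCm38.p6. Members, lists and tests were chosen with earlier results of these data known. The genes named are, by rule, those past the threshold, those with the largest differences without overlap in each comparison, those with several measured probe sets, 1 per symbol family for kainate and for genotype, and the Dusp, calcineurin and protein kinase A genes. Several Dusp genes below the level are not described. Cdk13, Cdk14, Mapk9, Ppp1r12a and the other genes beyond this rule were picked with their values known.

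Replicate numbers were checked for pairing: deviations from the group means of same-numbered arrays correlated at 0.627, 0.383 and 0.458 between the control groups, at 0.855, 0.470 and 0.482 between the saline groups and at 0.578, 0.333 and 0.190 between the kainate groups. Between the mutant groups they were 0.479, 0.0448 and -0.0779. A fit with the replicate number as a block (6 residual degrees of freedom) was an alternative. The block enters every comparison alike, also that between the mutant groups, where replicates 2 and 3 correlated little. Further alternatives were another filter, quantile normalization again, a block for replicate 1 against 2 and 3, and arrays left out.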

Additional observations from a re-analysis of the deposited data

How the results depend on the processing

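With every array as labelled, no filter, normalization, block or variance setting brought a member past the adjusted threshold of limma. Leaving out arrays gave 1 member, instead of 0, for kainate averaged over genotypes (range 0 to 1 when arrays were left out in turn; 1 with the block for replicate 1 and without mutant kainate replicate 3, alone or together with control kainate replicate 3). For kainate in mutants and for genotype after kainate the range was also 0 to 1, with Cdk17 as the member. Over all probe sets, the control kainate count of 1 became 3 with the stricter filter, 3 with quantile normalization, 3 with the replicate block, 2 with the block for replicate 1, 6 with only the arrays compared, 5 and 7 with that block and without 1 or both doubted arrays, 5 without both and with no block, and 1 to 4 with arrays left out in turn. The mutant kainate count of 1 became 0 with no filter, 4 with quantile normalization, 2 with either block, 0 with only the arrays compared, 4 and 5 with the block for replicate 1 and without 1 or both doubted arrays, 3 without both and with no block, and 0 to 67 with arrays left out in turn, the 67 without mutant kainate replicate 1. The averaged kainate count of 5 became 9 with quantile normalization, 22 and 20 with the block for replicate 1 and without 1 or both doubted arrays, 9 without both and with no block, and 5 to 56 with arrays left out, the 56 again without mutant kainate replicate 1. The genotype counts of 0 became 6 after saline, 4 after kainate and 29 averaged with the block for replicate 1 and without both doubted arrays. Without both and with no block they were 1, 0 and 5. With arrays left out in turn they were 0 to 15 after kainate and 0 to 2 averaged. The fits without mutant kainate replicate 3 but with that block, and without both arrays and with no block, were chosen after seeing the data. The replicate block changed no other call. The cause of these shifts was not tested, beyond the arrays named.

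Of 51 named differences, these turned in sign. The averaged kainate difference of Map4k5 became 0.11 without both doubted arrays and with the block for replicate 1 (0.13 with no block), and 0.072 with that block and without mutant kainate replicate 3. With arrays left out in turn it ranged from -0.46 (without mutant kainate replicate 1) to 0.082 (without mutant kainate replicate 3). That of Ptprg became 0.015 with the block and without mutant kainate replicate 3, and ranged from -0.69 (without mutant saline replicate 1) to 0.14 (without control kainate replicate 1). That of Prkaca ranged from -0.050 to 0.30, with these 2 values without mutant kainate replicates 1 and 3, and that of Ptpn2 became 0.0056 with quantile normalization. The averaged genotype difference of Prkaca became 0.012 with quantile normalization and 0.043 without both doubted arrays, with that block or without it, and ranged from -0.35 to 0.00060. That of Ppp1r3g became 0.044 without both doubted arrays, again with that block or without it, and ranged from -0.98 to 0.033. The ends of both ranges came without mutant kainate replicates 1 and 3. Probe sets near log2 4 lie close to the floor of the signal, so small differences there carry little weight.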
